A study of Homo sapiens with 6 samples.

Results

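The genes described here encode the human aminoacyl-tRNA synthetases, with 2 scaffold proteins that hold several of them together. The 38 members were taken from a list of gene names and matched to the deposited table, in which they were 38 of 58735 genes. They comprise 20 genes for cytosolic enzymes or their subunits, 16 genes for mitochondrial enzymes, whose names end in ARS2, and the scaffold genes AIMP1 and AIMP2. All 38 passed edgeR's filter on low counts, which kept 14736 genes. Each was compared between vehicle-treated and SCH-treated cultures of MDA-MB-231.

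An aminoacyl-tRNA synthetase joins an amino acid to the tRNA that carries its anticodon, and so supplies the ribosome with its substrates. Mitochondria translate their own genome with a separate set of enzymes, which are encoded in the nucleus and imported. GARS and KARS serve both compartments from a single gene, and several cytosolic enzymes are bound with AIMP1, AIMP2 and EEF1E1 in the multi-synthetase complex. When an amino acid runs short, the kinase GCN2 (EIF2AK4) raises the translation of the transcription factor ATF4, whose targets include many cytosolic synthetase genes. ATF4 binds with C/EBP proteins to a composite site in the promoters of such genes.

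MDA-MB-231 is an established human triple-negative breast cancer line, given in the labels as wild type. SCH is an aqueous extract of the herb Salvia chinensis Benth. The 3 SCH-treated samples received 100 mg/l for 24 h and the 3 vehicle-treated samples received the vehicle for the same time, and the series describes the 3 in each group as biological repeats. The labels give RPMI-1640 as the medium of all 6 cultures and the study's methods give DMEM for this line. The design holds 1 cell line, 1 dose and 1 time. The 6 libraries held, in counts on genes, 20291379, 18714240 and 18334857 with vehicle and 16836369, 17979434 and 18414924 with SCH. Levels are given below as the deposited FPKM. Within a sample these equal the count per kilobase of gene over the total count times a constant, which was 0.995 to 1.008 in the vehicle-treated samples and 0.937 to 0.941 in the SCH-treated samples, so they are not scaled to depth alone and every SCH level carries the lower constant. Changes are given as the log2 fold change of SCH over vehicle from edgeR's quasi-likelihood test on the counts. In cultures sequenced in bulk, fewer cells of a kind and less RNA per cell cannot be told apart.

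The libraries showed the mesenchymal-like profile of the line. VIM (vimentin) stood at 263 ± 4.45 FPKM (SD, n = 3) in the vehicle-treated samples and AXL at 293 ± 7.40 FPKM (SD, n = 3). ESR1 (estrogen receptor) had 0.0152 FPKM, PGR (progesterone receptor) was listed at 0 and ERBB2 (HER2) had 6.67 FPKM, each as the mean of the vehicle-treated samples. Of the luminal epithelial markers, CDH1 had 0.0401 FPKM, but KRT8 had 128 FPKM and EPCAM 6.53 FPKM. Across the 11 fibroblast, leukocyte and endothelial markers, no vehicle mean was above that of COL1A1, 0.481 FPKM, and DCN, CD3E and CDH5 were listed at 0. Markers of the line moved with the treatment, and 5 of the 6 fell, with CD44 not past the threshold. Of the 4 luminal markers that passed the filter, 3 fell and FOXA1 rose, and ERBB2, the only tested gene of the receptor list, rose. Of the 2 tested fibroblast markers COL1A1 rose, of the 2 tested leukocyte markers PTPRC fell, and the single tested endothelial marker, PECAM1, did not pass the threshold. The part of these shifts in the results below was not tested.

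The promoters are shown first because several members carry the sequence that ATF4 and C/EBP proteins bind. RefSeq promoters on GRCh38.p14, from 250 bases before to 50 bases after a transcription start, were found for 32 of the 38 members. DARS, LARS, VARS, YARS, AARS2 and VARS2 had none in the table. The core of the C/EBP-ATF response element, TGATGNAA on either strand, occurred in the promoters of 7 of 16 cytosolic genes (43.8%), of 1 of 14 mitochondrial genes (7.14%) and of neither scaffold gene, against 4.46% of all 27305 genes with a promoter. The matches are printed below on the strand of each gene with 10 bases on either side and the match in capitals.
AARS: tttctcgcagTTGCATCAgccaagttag
CARS: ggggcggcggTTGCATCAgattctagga
GARS: tacgcggcgaTTTCATCAtgctccgagc
IARS: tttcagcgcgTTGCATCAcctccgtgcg
MARS: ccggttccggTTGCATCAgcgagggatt
NARS: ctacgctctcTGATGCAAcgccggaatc
TARS: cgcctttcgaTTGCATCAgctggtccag
YARS2: tccacactgcTGATGGAAaaattaagtt

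In 6 of the 7 cytosolic genes the match reads TTGCATCA or its reverse complement TGATGCAA. GARS and YARS2 differ from it at the base that the search left free. On GRCh38.p14 the windows lie at chr16:70289676-70289703 on the minus strand (AARS), chr11:3057408-3057435 on the minus strand (CARS), chr7:30594835-30594862 on the plus strand (GARS) and chr9:92293693-92293720 on the minus strand (IARS). Those of MARS, NARS and TARS lie at chr12:57488054-57488081 on the plus strand, chr18:57621805-57621832 on the minus strand and chr5:33440957-33440984 on the plus strand, and that of YARS2 at chr12:32756077-32756104 on the minus strand. The match begins 2 bases before the RefSeq start in CARS, 4 in MARS, 13 in IARS and 33 in GARS, and within the transcript in NARS and TARS. In AARS and YARS2 it begins 187 and 197 bases before the start. The E-box CACGTG was found in 6.25% of the cytosolic genes, 21.4% of the mitochondrial genes and 8.77% of all genes. The palindrome bound by NRF1 was found in 18.8%, 21.4% and 6.98% of them. The 3 motifs were searched on both strands and counted separately, so that a stretch of bases could count for more than 1, and a match describes the letters only.

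After 24 h of SCH, 28 of the 38 genes were lowered, none was raised and 10 did not pass an adjusted p of 0.05. These counts depended on the scaling: with library size alone 13 cytosolic, 7 mitochondrial and both scaffold genes were lowered, and HARS, HARS2 and AARS2 were raised. Among all 14736 tested genes that scaling gave 3295 lowered and 5519 raised. With the TMM scaling used otherwise, 29.4% of all tested genes were lowered, 29.3% were raised and 58.7% changed in either direction. The median log2 fold change of the 38 genes was -0.31, beside -0.0034 for all tested genes. In 30 of the 38 genes the 3 SCH-treated samples and the 3 vehicle-treated samples did not overlap in CPM (counts over the TMM-normalized library size), against 62.4% of all tested genes.

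**Figure D1:**
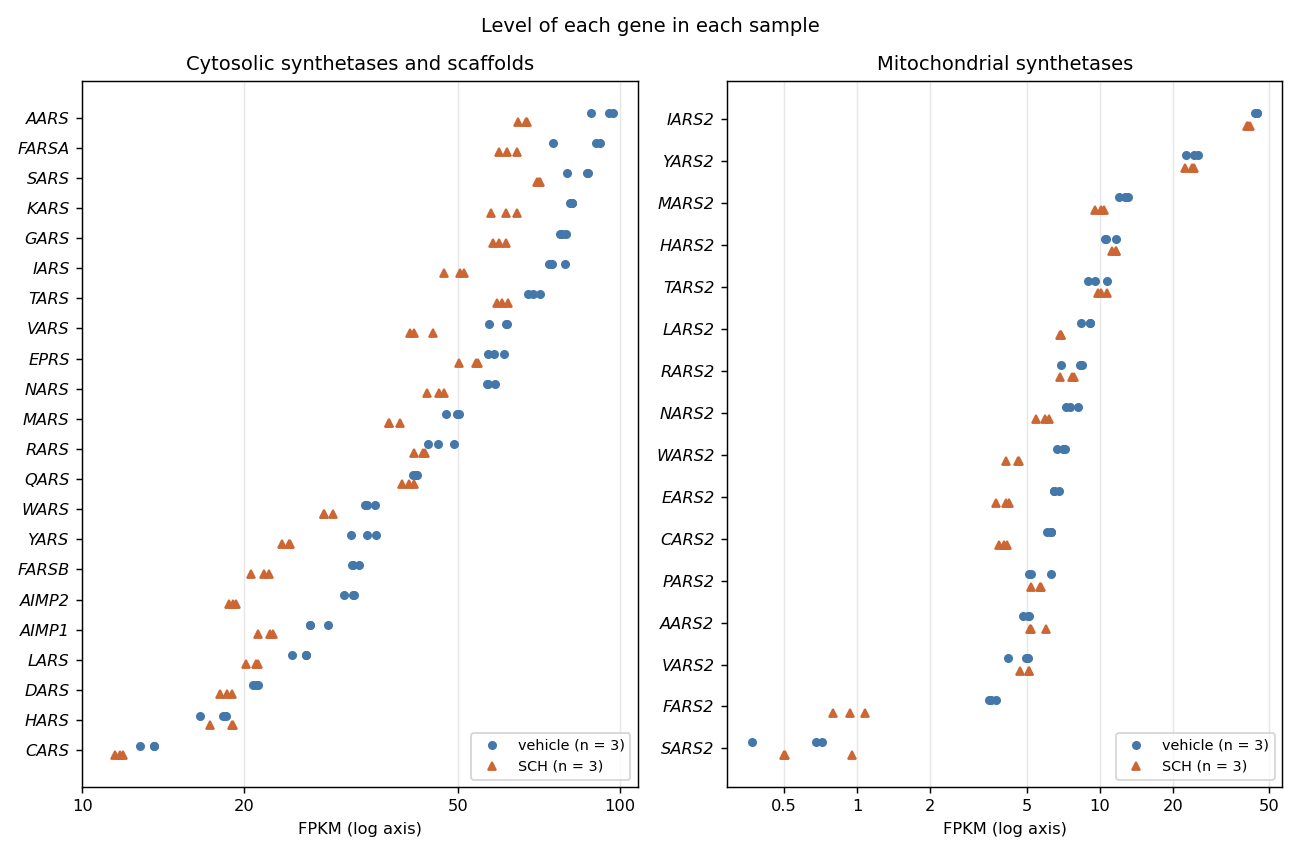
FPKM of each gene in each of the 3 vehicle-treated (circles) and 3 SCH-treated (triangles) samples on log axes, with genes in order of their vehicle mean. Vehicle means of the cytosolic genes run from 13.3 FPKM (CARS) to 93.5 FPKM (AARS) and those of the mitochondrial genes from 0.587 FPKM (SARS2) to 44.2 FPKM (IARS2).

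The cytosolic genes were the more abundant. Their median level in the vehicle-treated samples was 53.2 FPKM, against 7.31 FPKM for the mitochondrial genes. Summed over the 20 genes, the cytosolic level was 1066, 1066 and 1041 FPKM in the vehicle-treated samples and 828, 833 and 842 FPKM in the SCH-treated samples. The mitochondrial sum was 168, 166 and 162 FPKM with vehicle and 147, 147 and 146 FPKM with SCH. Neither pair of groups overlapped, and the cytosolic mean fell by 21.1% and the mitochondrial mean by 11.2%. The ratio of the sums moved from 6.40 ± 0.0341 to 5.68 ± 0.0689 (SD, n = 3 each). The sums carry the constants of the deposited FPKM, and the ratio does not. With counts per kilobase over the total count the cytosolic sum fell by 15.7% and the mitochondrial sum fell by 5.11%. With FPKM divided by the sum of the sample the first fell by 13.9% and the second fell by 3.14%.

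Of the 20 cytosolic genes, 18 fell, or 13 with 1 raised when library size was the only scaling. The share lowered among all tested genes was 29.4% with TMM scaling. The 20 genes had a median log2 fold change of -0.32 with TMM scaling, and their values ran from -0.62 to 0.047. The largest falls were those of IARS, FARSB, VARS and AARS. Their falls were past the threshold under all 16 alternatives.

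IARS (ENSG00000196305, chromosome 9 from 92210207 to 92293756, minus strand, on GRCh38 as are all gene positions here) encodes the isoleucyl-tRNA synthetase of the multi-synthetase complex. It had 74.6, 73.8 and 78.9 FPKM with vehicle and 46.9, 51.2 and 50.4 FPKM with SCH. Its log2 fold change was -0.62 (standard error, SE, 0.049, with an adjusted p = 1.91e-10), a fall of 34.9% in normalized counts. FARSB (ENSG00000116120, chromosome 2 from 222570536 to 222656337, minus strand) encodes the beta subunit of the phenylalanyl-tRNA synthetase. It had 31.9, 31.7 and 32.7 FPKM with vehicle and 21.8, 20.6 and 22.3 FPKM with SCH, and its log2 fold change was -0.58 (SE 0.054, adjusted p = 2.83e-09). The alpha subunit of the same enzyme, FARSA, moved by -0.48 (SE 0.062, adjusted p = 5.33e-07), so both subunits were lowered.

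VARS (ENSG00000204394, chromosome 6 from 31777518 to 31795953, minus strand) encodes the valyl-tRNA synthetase. Its level was 61.7, 61.3 and 57.0 FPKM with vehicle and 44.9, 41.5 and 40.7 FPKM with SCH, with a log2 fold change of -0.51 (SE 0.050, adjusted p = 7.83e-09). AARS (ENSG00000090861, chromosome 16 from 70252295 to 70289543, minus strand), the alanyl-tRNA synthetase, was the most abundant of the 38 genes with vehicle. It had 95.5, 96.9 and 88.2 FPKM with vehicle and 67.1, 64.7 and 67.0 FPKM with SCH, with a log2 fold change of -0.50 (SE 0.048, adjusted p = 4.66e-09). In each of these genes, chosen for the size of their falls, every SCH-treated sample lay below every vehicle-treated sample. The groups did not overlap in CPM in 62.4% of all tested genes.

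The other cytosolic falls were graded. YARS, KARS, GARS, MARS, NARS and LARS, for tyrosine, lysine, glycine, methionine, asparagine and leucine, had log2 fold changes between -0.49 and -0.30. WARS and SARS (tryptophan and serine) had -0.27 each, and TARS, CARS and DARS (threonine, cysteine and aspartate) had -0.20, -0.19 and -0.19. EPRS, a fusion of the glutamyl and prolyl enzymes, and RARS, for arginine, had the smallest, -0.15 (adjusted p = 0.0101) and -0.13 (adjusted p = 0.0402). The calls of TARS, CARS and DARS were lost with library size as the only scaling, that of EPRS held under 13 of 16 alternatives and that of RARS under 5. QARS, the glutaminyl enzyme, was at 41.6 ± 0.333 FPKM with vehicle and 40.4 ± 1.00 FPKM with SCH (SD, n = 3 each). Its log2 fold change was -0.049 with a 95% interval from -0.14 to 0.043 (adjusted p = 0.383). HARS, the histidyl enzyme, was at 17.8 ± 1.08 and 18.4 ± 1.01 FPKM (SD, n = 3 each), with 0.047 and an interval from -0.062 to 0.16 (adjusted p = 0.486).

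**Figure D2:**
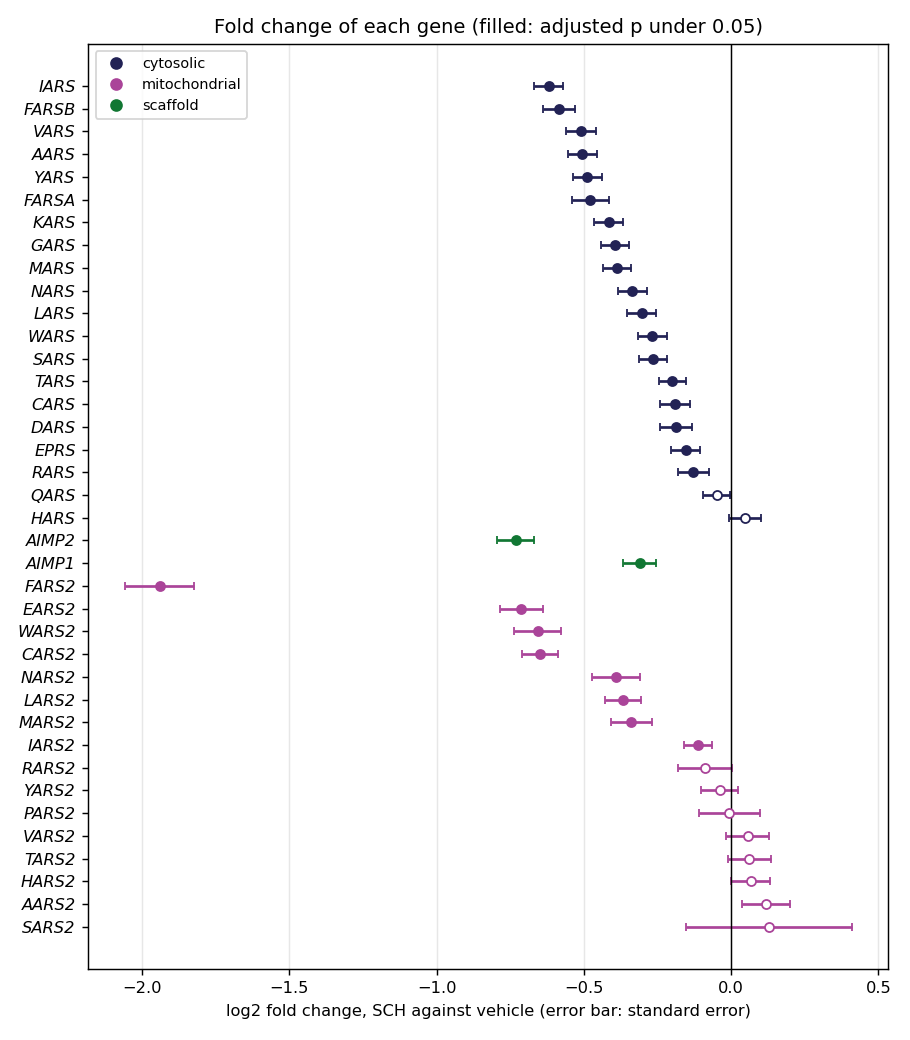
Log2 fold change of SCH against vehicle for each gene with its standard error, from edgeR's quasi-likelihood test. Filled points passed an adjusted p of 0.05, and all 28 of them lie below 0, from -0.11 (IARS2) to -1.94 (FARS2). With library size as the only scaling HARS, HARS2 and AARS2 were called raised.

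Synthetases fall into classes I and II by the fold of their catalytic domain. Of 9 cytosolic class I genes 8 were lowered (median -0.30 on the log2 scale), and of 10 class II genes 9 were lowered, with a median of -0.36. EPRS holds a domain of each class and was counted apart. Of the 8 synthetases of the multi-synthetase complex 7 were lowered, with a median of -0.24, and of the 12 cytosolic genes outside it 11 were lowered, with a median of -0.36. Of the 7 cytosolic genes with the response element printed above, all 7 were lowered, with a median of -0.39 and values from -0.62 (IARS) to -0.19 (CARS). Of the 9 with a promoter without it 7 were lowered, with a median of -0.27. VARS, YARS, LARS and DARS, for which no promoter was found, are in neither group. They were also lowered, with -0.51, -0.49, -0.30 and -0.19. The share lowered among all tested genes was 29.4%, and the groups above were not compared by a test.

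Both scaffold genes were lowered as well. AIMP2 (ENSG00000106305, chromosome 7 from 6009245 to 6023834, plus strand) had 31.8, 30.7 and 32.0 FPKM with vehicle and 19.0, 18.8 and 19.3 FPKM with SCH. The change of -0.73 on the log2 scale (SE 0.062, adjusted p = 5.98e-10) was larger in size than that of any cytosolic synthetase gene. AIMP2 overlaps EIF2AK1 on the opposite strand, and 28.9% of its exonic bases lie in exons of other genes. No source used here states that the counting used strand, so reads in that stretch cannot be told apart. AIMP1 (ENSG00000164022, chromosome 4 from 106315544 to 106349226, plus strand) had 26.6, 26.5 and 28.6 FPKM with vehicle and 21.2, 22.3 and 22.6 FPKM with SCH, with a log2 fold change of -0.31 (SE 0.056, adjusted p = 5.31e-05). The third scaffold of the complex, EEF1E1, which was not among the 38 genes, had -0.23 (SE 0.085, adjusted p = 0.0254).

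Against a share of 29.4% lowered among all tested genes, the mitochondrial genes divided evenly, with 8 lowered and 8 not past the threshold. Their median log2 fold change was -0.10 with values from -1.94 to 0.13, and with library size as the only scaling it was 0.0021, with 2 genes raised and 7 lowered. The 8 that fell were FARS2, EARS2, WARS2, CARS2, NARS2, LARS2, MARS2 and IARS2. The spread of these 16 genes was wider than that of the cytosolic genes, and their counts ran from 22 to 3751 per gene and sample, against 1296 to 11134 for the cytosolic genes. The median standard error was 0.073 on the log2 scale, against 0.049 for the cytosolic genes.

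FARS2 (ENSG00000145982, chromosome 6 from 5261044 to 5829192, plus strand), the mitochondrial phenylalanyl-tRNA synthetase, fell most of all 38 genes. It had 3.73, 3.55 and 3.49 FPKM with vehicle and 0.797, 1.08 and 0.936 FPKM with SCH, from 311 to 364 counts per sample with vehicle and from 69 to 100 with SCH. The level fell by 74.0% in normalized counts, or by 1.94 on the log2 scale (SE 0.12, adjusted p = 2.16e-12). On log2(FPKM + 1), where low levels are compressed, the value was -1.25. EARS2 (ENSG00000103356, chromosome 16 from 23522014 to 23557731, minus strand), the mitochondrial glutamyl-tRNA synthetase, which also charges the tRNA for glutamine with glutamate, had 6.47, 6.46 and 6.79 FPKM with vehicle and 3.73, 4.24 and 4.12 FPKM with SCH. It moved by -0.71 on the log2 scale (SE 0.073, adjusted p = 1.55e-08).

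WARS2 (ENSG00000116874, chromosome 1 from 119031216 to 119140671, minus strand), the mitochondrial tryptophanyl enzyme, had 7.07, 6.69 and 7.20 FPKM with vehicle and 4.66, 4.59 and 4.11 FPKM with SCH. The log2 fold change was -0.66 (SE 0.081, adjusted p = 2.65e-07). CARS2 (ENSG00000134905, chromosome 13 from 110641412 to 110713603, minus strand), the cysteinyl enzyme, had 6.32, 6.29 and 6.08 FPKM with vehicle and 4.15, 3.83 and 4.02 FPKM with SCH. Its log2 fold change was -0.65 (SE 0.060, adjusted p = 2.99e-09). In all 4 genes, chosen for the size of their falls, the groups were apart in every sample. Groups did not overlap in CPM in 62.4% of all tested genes. NARS2, LARS2 and MARS2, for asparagine, leucine and methionine, had log2 fold changes of -0.39, -0.37 and -0.34. IARS2, the most abundant mitochondrial synthetase gene at 44.2 ± 0.496 FPKM with vehicle and 41.1 ± 0.535 FPKM with SCH (SD, n = 3 each), had -0.11 (SE 0.047, adjusted p = 0.0440), and its call held under 6 of 16 alternatives.

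The 8 genes that did not pass the threshold had log2 fold changes from -0.089 to 0.13. RARS2 (arginine), YARS2 (tyrosine) and PARS2 (proline) had -0.089, -0.039 and -0.0057, and VARS2 (valine), TARS2 (threonine) and HARS2 (histidine) had 0.056, 0.063 and 0.067. AARS2, for alanine, had 5.07, 5.09 and 4.84 FPKM with vehicle and 6.01, 5.17 and 5.21 FPKM with SCH. Its groups did not overlap, but its log2 fold change of 0.12 did not pass the threshold (SE 0.082, adjusted p = 0.222). SARS2, for serine, had only 44, 43 and 22 counts with vehicle and 55, 31 and 32 with SCH, and its value of 0.13 has a 95% interval from -0.43 to 0.68. Of its exonic bases 57.0% lie in exons of other genes, among them MRPS12. The same share was 22% for VARS2, with GTF2H4, and 15.8% for HARS2, with HARS and ZMAT2.

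The gap between the compartments depended on which genes were taken. The cytosolic median was 0.22 lower than the mitochondrial median on the log2 scale. This difference was the same with library size as the only scaling, which shifts all genes nearly alike and so cannot test it. Without SCH replicate 1 the difference came to 0.12, with a mitochondrial median of -0.16. Left to genes with under 5% of their exonic bases in other genes' exons, 15 of 16 cytosolic genes were lowered with a median of -0.36 and 7 of 11 mitochondrial genes with a median of -0.34. The medians then differed by 0.026 on the log2 scale. That limit was chosen after the values were seen. For comparison, 29.4% of all tested genes were lowered. Among mitochondrial genes 6 of 9 of class I and 2 of 7 of class II were lowered, with medians of -0.34 and 0.063, or, FARS2 aside, 7 of 15 genes of both classes were lowered with a median of -0.089.

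A cytosolic enzyme and its mitochondrial partner charge tRNAs with the same amino acid, and 13 such pairs were compared within each sample. The ratio of their FPKM was lower with SCH in 9 pairs, of which 5 had groups that did not overlap, and higher in 4, of which 2 did not overlap. Among all tested genes the groups did not overlap in CPM in 62.4%, which is a share of single genes and not of ratios. Exact two-sided permutation tests of 3 samples against 3 cannot give a p under 0.1, and the smallest adjusted p over the 13 pairs was 0.186. AARS had 18.7 times the FPKM of AARS2 with vehicle and 12.2 times with SCH, a change of -0.62 on the log2 scale. VARS over VARS2 went from 12.7 to 8.52 (-0.57). IARS had 1.71 times the FPKM of IARS2 with vehicle, and this ratio changed by -0.51 on the log2 scale. YARS over YARS2 went from 1.39 to 1.02 (-0.45) and TARS over TARS2 from 7.09 to 5.91 (-0.26). In these pairs the cytosolic gene was lowered, and of the partners only IARS2 was.

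CARS over CARS2 and WARS over WARS2 moved the other way, from 2.14 to 2.94 (0.46 on the log2 scale) and from 4.89 to 6.41 (0.39). Both genes of these pairs were lowered, the mitochondrial gene by more. The ratios of the MARS, RARS, HARS, NARS and LARS pairs changed by -0.049, -0.038, -0.020, 0.055 and 0.062, with groups that overlapped. The sign of 3 of them turned with a sample left out: HARS came to 0.037 without vehicle replicate 2 and 0.036 without SCH replicate 2, RARS to 0.017 without vehicle replicate 1, and NARS to -0.0018 without SCH replicate 2. The ratio of the SARS pair changed by -0.40, also with overlap, and rests on the low counts of SARS2. It changed by -0.087 without SCH replicate 1 and by -0.14 without vehicle replicate 3.

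**Figure D3:**
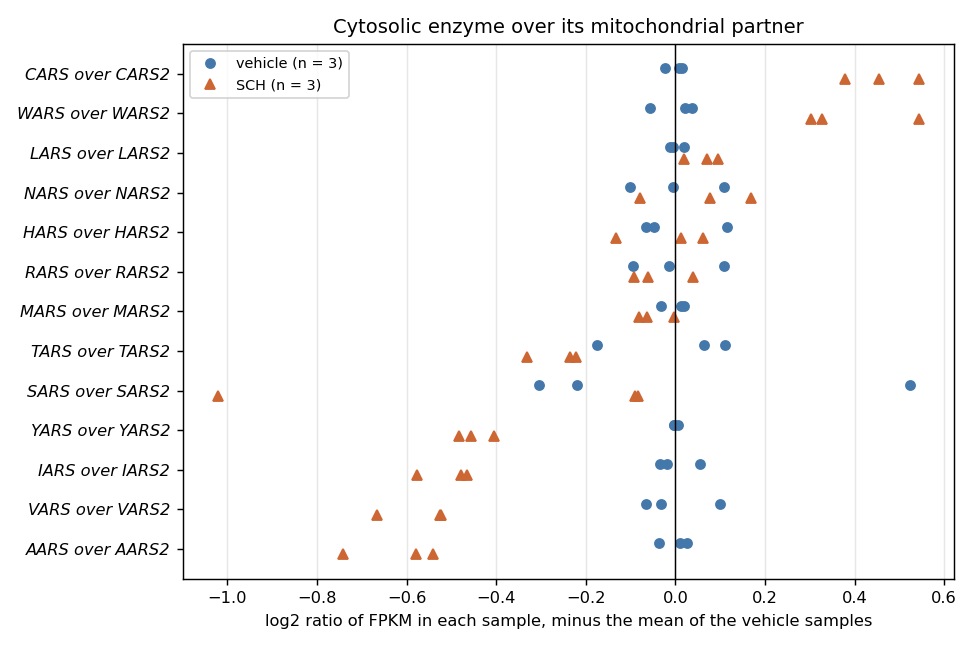
Log2 ratio of the FPKM of each cytosolic gene to that of its mitochondrial partner in each sample, minus the mean of the 3 vehicle-treated samples (circles, vehicle, and triangles, SCH). The SCH-treated samples lie below all vehicle-treated samples for 5 pairs and above them for 2, with mean changes from -0.62 (AARS) to 0.46 (CARS).

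HARS and HARS2 were the only pair of the 13 in which neither gene passed the threshold. They lie head to head on chromosome 5, HARS from 140673904 to 140691862 on the minus strand and HARS2 from 140691426 to 140699318 on the plus strand. Their RefSeq starts are separated by 84 bases (chr5:140691371-140691454 on GRCh38.p14), given here on the plus strand because both genes are read outward from it: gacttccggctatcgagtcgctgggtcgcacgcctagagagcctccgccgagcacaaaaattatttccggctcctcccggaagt. The gene spans given above overlap, and that of HARS covers the 84 bases. These bases lie between the genes only by the RefSeq starts. The promoter windows of HARS and HARS2 share 184 bases. Their levels were 17.8 ± 1.08 and 10.9 ± 0.607 FPKM with vehicle and 18.4 ± 1.01 and 11.5 ± 0.268 FPKM with SCH (SD, n = 3 each). With library size as the only scaling both were called raised, by 0.15 and 0.17.

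The mitochondrial genes that fell spanned more of the genome. The median span from first to last base was 90.8 kb for the 8 lowered genes and 16.9 kb for the 8 others. All 4 mitochondrial genes over 100 kb were lowered (FARS2 at 568 kb, LARS2 at 161 kb, NARS2 at 139 kb and WARS2 at 109 kb), as were 4 of the 12 shorter ones, with MARS2 at 3.02 kb the shortest. Across the 16 genes, which share libraries and are not replicates, Spearman's rho of span and log2 fold change was -0.70, and -0.63 without FARS2. Across the 20 cytosolic genes, none of which reaches 100 kb, it was -0.20. Among all tested genes, 40.7% of the 2649 over 100 kb and 26.9% of the 12087 others were lowered, with median log2 fold changes of -0.11 and 0.015. The part of span in the falls of the synthetase genes was not tested.

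**Figure D4:**
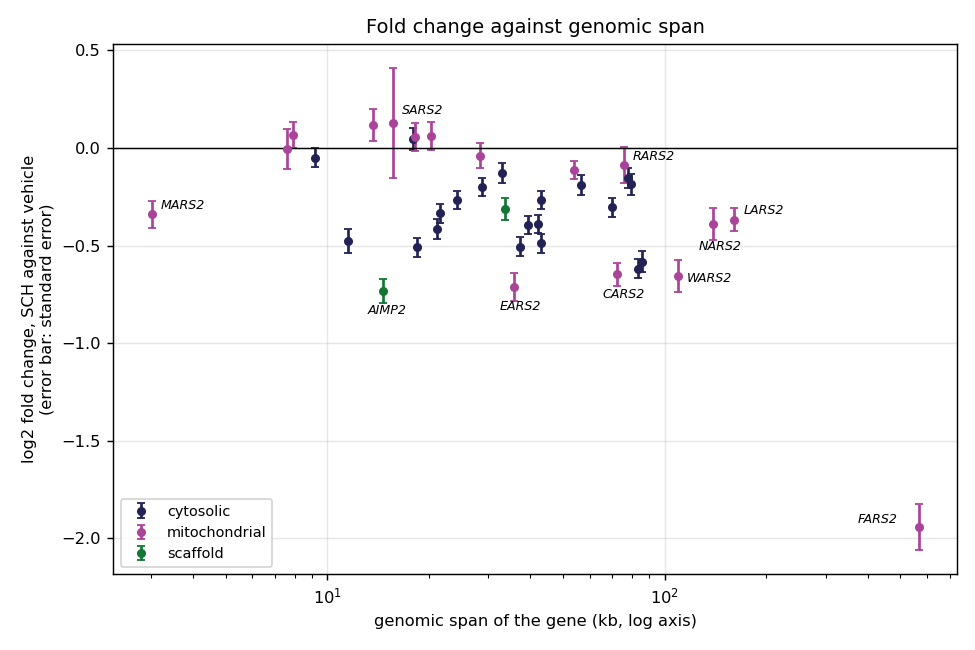
Log2 fold change of SCH against vehicle (error bars, standard error) of the 38 genes against the span of the gene in kb on a log axis. FARS2, the longest at 568 kb, has the lowest value, -1.94, while MARS2, the shortest at 3.02 kb, lies at -0.34.

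Genes that work beside the synthetases were counted in lists fixed for this description. For comparison, 29.4% of all 14736 tested genes were lowered and 29.3% raised. With library size as the only scaling 3295 of them were lowered and 5519 raised. Of 11 other genes of tRNA charging, all tested, 6 were lowered and none raised (median -0.24 on the log2 scale). Only 3 were lowered with library size as the only scaling, where the median was -0.14, and also 3 at a threshold of 0.01, and 4 to 6 were lowered with each sample left out. DTD1, a deacylase that removes D-amino acids from tRNA, fell from 6.15 ± 0.579 to 2.58 ± 0.0798 FPKM (SD, n = 3 each), with a log2 fold change of -1.26 (SE 0.081, adjusted p = 4.93e-12), and spans 179 kb. GATB, a subunit of the amidotransferase that turns the glutamate placed by EARS2 into glutamine, had -0.84 (SE 0.080, adjusted p = 4.26e-09). QRSL1, another subunit, had -0.24 and was also lowered, while GATC had 0.046 and did not pass the threshold. DTD2, another deacylase, had -0.52.

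Of 36 genes of the amino acid response, 34 were tested, of which 21 were lowered, 7 raised and 6 not past the threshold, with a median of -0.38. With library size as the only scaling 18 were lowered and 9 raised, and on log2(FPKM + 1) the median was -0.25. ATF4 itself fell from 223 ± 0.986 to 152 ± 3.75 FPKM (SD, n = 3 each), with a log2 fold change of -0.56 (SE 0.045, adjusted p = 2.73e-10). EIF2AK4, the kinase above it, had -0.20 (adjusted p = 0.00277). PYCR1 (proline synthesis) had -1.40, PSAT1 (serine synthesis) -0.73, the pseudokinase TRIB3 -0.72 and the amino acid transporter SLC7A5 -0.67. Exons of other genes hold 29.7% of the exonic bases of PYCR1. ATF3, a stress-induced transcription factor, rose from 2.43 ± 0.158 to 7.41 ± 0.239 FPKM (SD, n = 3 each), by 1.60 on the log2 scale (adjusted p = 2.97e-13). SESN2, a leucine sensor, PPP1R15A, which returns eIF2 to its active form, and DDIT3 (CHOP) rose by 0.43, 0.34 and 0.29. Of the exonic bases of DDIT3, 39.6% lie in exons of other genes, where it overlaps MARS, which fell. CHAC1 had 0.034 (adjusted p = 0.785). ASNS, the asparagine synthetase, had 0.469 ± 0.0629 FPKM with vehicle and 0.559 ± 0.157 FPKM with SCH (SD, n = 3 each) and 0.25 (adjusted p = 0.366), with 44.6% of its exonic bases in another gene's exons.

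Of 18 mitochondrial translation factors 11 were lowered and 1 raised, with a median of -0.23, and with library size as the only scaling 8 were lowered and 2 raised. The recycling factor MRRF, the peptidyl-tRNA hydrolase MRPL58 and the elongation factor TSFM had -0.69, -0.53 and -0.45, and GFM2 rose by 0.28. For TSFM 28.5% of the exonic bases lie in exons of other genes. Of 25 genes of RNA polymerase III, which transcribes tRNA genes, 11 were lowered (44%) and 6 raised (24%), with a median of -0.12. The shares of all tested genes were 29.4% and 29.3%. With library size as the only scaling 6 were lowered and 8 raised, and the median was -0.017. Under that scaling 3295 of all 14736 tested genes were lowered and 5519 raised. Without vehicle replicate 1 or without vehicle replicate 2, 7 were lowered, as at a threshold of 0.01. Its alternative subunits moved apart, POLR3G by -0.63 (adjusted p = 2.26e-07) and POLR3GL by 0.68 (adjusted p = 4.05e-06). For POLR3GL 21.2% of the exonic bases lie in another gene's exons. The 5S factor GTF3A had -0.41, and POLR3A, the largest subunit, and GTF3C1 rose by 0.31 and 0.33.

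Of 88 genes of tRNA maturation 40 were lowered, 8 raised and 40 not past the threshold, with a median of -0.15. With library size as the only scaling 32 were lowered and 14 raised, and the median was -0.050. CDKAL1, which modifies the tRNA for lysine and spans 698 kb, had -1.62 (SE 0.095, adjusted p = 1.22e-12). The methyltransferase subunit TRMT61A and the splicing endonuclease subunit TSEN15 had -0.76 and -0.69. LAGE3 and TSEN34, another subunit of the endonuclease, rose by 0.48 and 0.32. These lists and the synthetase genes were not compared by a test.

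**Figure D5:**
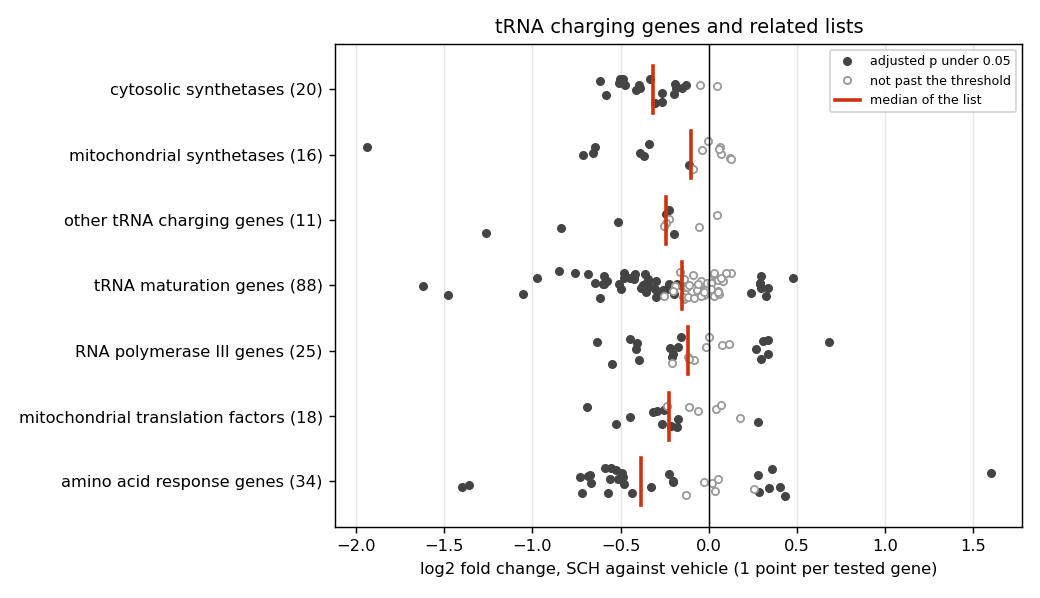
Log2 fold change of each tested gene in 7 lists (1 point per gene, filled where the adjusted p is under 0.05, the red line the median of the list). Medians run from -0.38 (amino acid response) to -0.10 (mitochondrial synthetases, 0.0021 with library size as the only scaling), and the cytosolic synthetases, at -0.32, have 18 of 20 points filled, all below 0.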

How the data were processed

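RNA was sequenced from poly-T purified mRNA of 6 cultures. The authors deposited raw counts per gene, with no normalization, and FPKM values per sample, which were proportional to count over gene length within a sample, with a constant that differed between samples. The submitters' processing notes name CASAVA 1.8, HISAT2 2.0.5, featureCounts 1.5.0-p3, DESeq2 1.20.0 and GRCh38.

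Counts were tested with edgeR 4.0.16 in R 4.3.3 (TMM, filterByExpr, quasi-likelihood test, no covariate, Benjamini-Hochberg over all 14736 genes, threshold 0.05). The standard error is the absolute log2 fold change over the square root of F. The biological coefficient of variation was 5.17%. No pair of libraries of a group was a copy (the squared differences of their counts were 2.05 to 5.29 times those that counting alone gives). Depth limits the genes with low counts, and the main test used no floor on counts other than filterByExpr. On simulated data of 14736 genes for this comparison, 82% of genes changed by 0.5 on the log2 scale and 97% of those changed by 1 were recovered. The simulation changed only 200 genes, none with a low mean count, and used 1 dispersion for all genes. False calls were 10 of 189 (5.29%). In the data 58.7% of genes were called, so these shares need not carry over to them or to smaller changes.

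Alternatives were other scalings and filters, DESeq2 1.42.0, limma 3.58.1 with trend on log2(FPKM + 1) and log2(FPKM + 0.1), a replicate block, each sample left out and a threshold of 0.01. Exonic overlap was read from GENCODE release 29 and promoters from RefSeq (GRCh38.p14). The members and lists were chosen with earlier results of these data known. All members are named, with values per sample for the 4 largest called changes in each direction of each compartment and for AIMP1 and AIMP2. From other lists up to 3 called genes per direction with the smallest p, and ATF4, ASNS, DDIT3, CHAC1 and TRIB3, are named, except for genes not reported here. Further genes (EEF1E1, QRSL1, GATC, EIF2AK4) and the promoter pair of HARS were chosen after their values were seen.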

Additional observations from a re-analysis of the deposited data

How the results depend on the processing

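Of the 38 genes, 29 gave an unaltered call under all 16 alternatives. The 28 lowered genes stayed below 0 in each of them. Among the 29, the sign of 6 that did not pass the threshold (QARS, RARS2, YARS2, PARS2, VARS2 and SARS2) changed with the alternative. RARS and IARS2 lost the call in 11 and 10 of the alternatives, and EPRS without SCH replicate 1, at a threshold of 0.01 and with library size as the only scaling. TARS, CARS and DARS lost it with library size only, where HARS, HARS2 and AARS2 were called raised. That scaling moved the median of all tested genes from -0.0034 to 0.099, with 5519 genes raised and 3295 lowered in place of 4318 and 4332. The replicate numbers did not pair the samples (correlations of deviations of 0.072, -0.035 and 0.057 for numbers 1, 2 and 3). With a replicate block 8705 genes were called in place of 8650, and of the 38 genes IARS2 alone changed, to -0.11 with adjusted p = 0.0638.

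With library size only, the medians were -0.22 (cytosolic, 1 raised), 0.0021 (mitochondrial, 2 raised), -0.42 (scaffolds), -0.14 (other charging genes, 3 lowered), -0.28 (amino acid response), -0.13 (mitochondrial translation, 2 raised), -0.017 (RNA polymerase III, 6 lowered) and -0.050 (tRNA maturation, 14 raised). With the upper quartile they were -0.35 (cytosolic), -0.13 (mitochondrial), -0.41 (amino acid response), -0.26 (mitochondrial translation), -0.15 (RNA polymerase III) and -0.19 (tRNA maturation). On log2(FPKM + 1) they were -0.25 (amino acid response), -0.18 (mitochondrial translation), -0.12 (tRNA maturation) and -0.18 (other charging genes). With no filter on low counts they were -0.42 (amino acid response), -0.10 (RNA polymerase III) and -0.14 (tRNA maturation), and with at least 10 counts in every sample -0.34 (amino acid response). At a threshold of 0.01, 7 genes of RNA polymerase III and 3 other charging genes were lowered. On FPKM divided by the sum of the sample, the log2 ratios of the summed levels were -0.22 (cytosolic) and -0.046 (mitochondrial), in place of -0.34 and -0.17, and with counts per kilobase over the total count, a scale added after the values were seen, -0.25 and -0.076. Leaving aside GARS and KARS gave a cytosolic median of -0.29. Leaving aside genes with 5% exonic overlap or more gave -0.36 (cytosolic), -0.34 (mitochondrial) and a difference of -0.026. The cause of these shifts was not tested.

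With each sample left out, the medians ran from -0.33 to -0.29 (cytosolic), -0.16 to -0.084 (mitochondrial), -0.42 to -0.33 (amino acid response), -0.24 to -0.20 (mitochondrial translation, 1 to 2 raised), -0.14 to -0.095 (RNA polymerase III, 7 to 13 lowered), -0.18 to -0.15 (tRNA maturation) and -0.25 to -0.21 (other charging genes). The difference of the compartments ran from -0.25 to -0.12.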
